A study of Mus musculus with 12 samples.

Results

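The endoderm and the mesoderm direction of wild type mouse embryonic stem cells were compared gene by gene, each after 5 days of its protocol. The comparison takes 6 of the 12 libraries in the series, those whose titles name wild type cells: 3 endoderm libraries (E1 to E3) and 3 mesoderm libraries (M1 to M3). All 12 come from the mouse embryonic stem cell line CJ9, and the other 6 are labelled arid4b∆ and cover the same directions. The labels name no factors or media for either protocol. They do not say that a group's 3 libraries are separate cultures, and where they are not, a p-value reflects technical spread alone. The series asks what Arid4b, a subunit of the SIN3 histone deacetylase complex, does in the commitment of these cells.

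In the mouse embryo, cells of the pluripotent epiblast leave through the primitive streak and become mesoderm or definitive endoderm. Strong Nodal signalling acts at the anterior end of the streak, where the endoderm factors Foxa2, Sox17 and Gsc are switched on, while Wnt and BMP signals act at its posterior end, where T (brachyury), Mesp1 and the Cdx genes mark nascent mesoderm. Directed differentiation of stem cells uses the same signals in culture, and a streak-like state is common to both routes.

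Total counts in the 6 libraries lay between 10351074 and 29004640. The ribosomal RNA precursor Rn45s took 79.7% to 81.5% of them and was set aside, which left 1949299 to 5624336 counts, and Mir6236 and Lars2 took 49.7% to 61.9% of these. Levels are CPM, the count of a gene relative to the TMM-scaled total of what remained, and 3 counts correspond to 0.506 to 1.55 CPM. On the logarithmic values of all tested genes, 53.7% of the variance lay along a component that separated the directions. On it, M1 (score −17.38) stood nearer to the endoderm libraries (27.2 to 32.54) than M2 and M3 did (−36.05 and −34.22).

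The markers of the labelled tissues followed the labels in part. The 11 definitive endoderm markers summed to 271 to 396 CPM in the endoderm libraries and 29.8 to 36.8 CPM in the mesoderm libraries, and 10 of them were called higher in endoderm. The 11 mesoderm markers summed to 86.9 to 125 CPM in the endoderm libraries and 207 to 462 CPM in the mesoderm libraries. Of these, 7 were tested and 4 were called higher in mesoderm. In the mesoderm libraries T supplied most of the sum, and the mesoderm receptors Kdr, Pdgfra and Aplnr did not separate the directions. Pluripotency markers remained at 383 to 437 CPM in the endoderm libraries and 309 to 378 CPM in the mesoderm libraries. In bulk samples fewer cells of a type and less RNA per cell cannot be told apart.

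Of 11635 genes tested, 1145 (9.84%) differed between the directions in edgeR (quasi-likelihood F-test) at a Benjamini-Hochberg adjusted p of 0.05, the rule meant by "called" throughout. Of these, 513 (4.41% of tested genes) were higher in endoderm and 632 (5.43%) in mesoderm. These shares are the background for every count of called list members below. A positive log2 fold change means higher in endoderm, and its median over all tested genes was 0.008. A difference of at least 2-fold was fitted for 239 genes called higher in endoderm and 372 called higher in mesoderm, and one of at least 4-fold for 92 and 153. Without any overlap between the 3 and 3 libraries, called or not, were 2853 genes (24.5%). Each call below was also made under up to 12 alternatives, among them DESeq2 and the removal of each library in turn, and calls that an alternative ended or added are named (for a fit with replicate number as a term, among the effects of the processing) with the range of the adjusted p over them. Without E2 there were 330 calls higher in endoderm, and without M3 there were 380 higher in mesoderm. Levels joined by "against" give E1 to E3 and then M1 to M3, and a bare value with ± is a log2 fold change with its standard error (SE). Genes are given by position on mm10, as RefSeq places them on GRCm38.p6. Fold bounds and intervals cover counting error only.

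**Figure D1:**
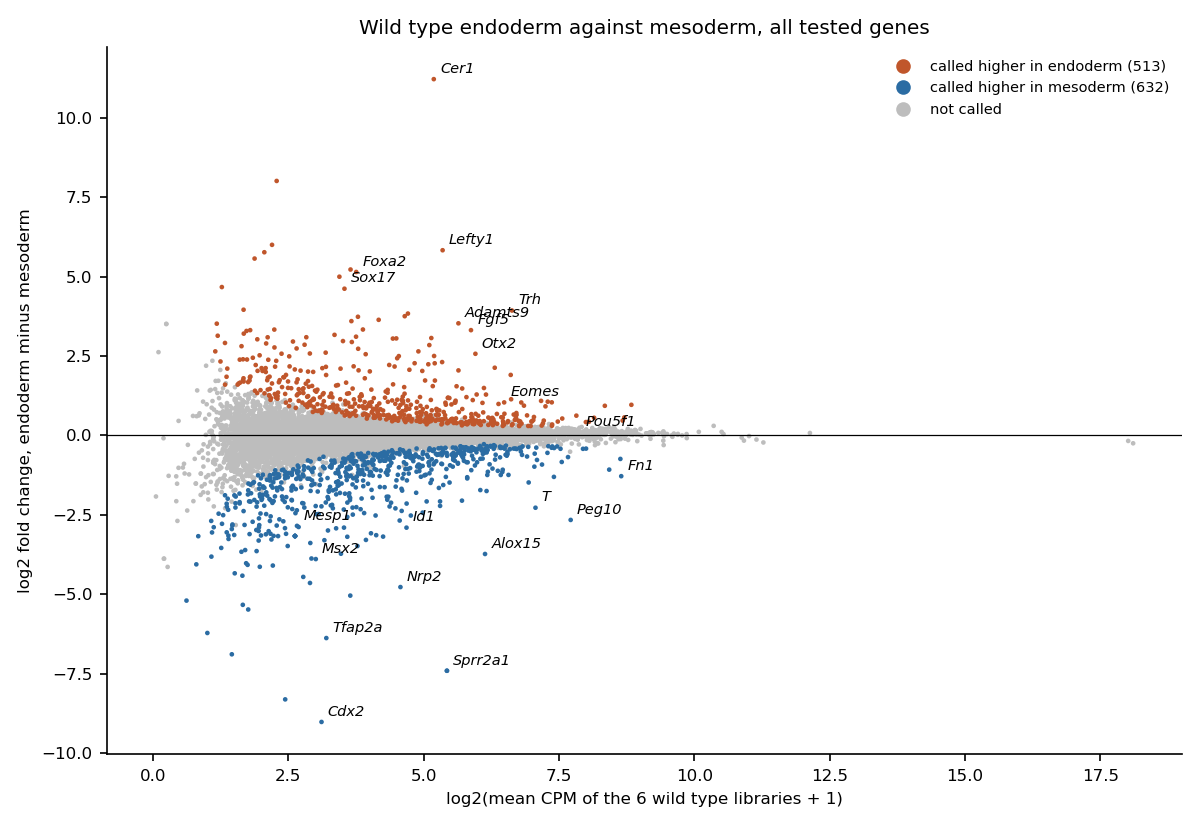
Fitted log2 fold change (endoderm minus mesoderm) of each of the 11635 tested genes against its mean level in the 6 wild type libraries, log2(CPM + 1). Red points are the 513 genes called higher in endoderm, blue points the 632 called higher in mesoderm and grey points the rest; the values of Cer1, Cdx2 and other genes without counts in 1 group are fitted values, not bounds.

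Endoderm factors stood almost wholly on the endoderm side. Of the 15 tested transcription factors of the endoderm and the anterior streak, 11 were called higher in endoderm and the remaining 4 were not called, with a median log2 fold change of 2.57. Foxa2, the forkhead factor that opens chromatin at endoderm genes (chromosome 2, 148042877 to 148046969), stood at 23.3, 30.3 and 19.8 CPM in the endoderm libraries and 1, 0 and 0.675 CPM in the mesoderm libraries (log2 fold change 5.14 ± 0.38 SE, adjusted p = 5.97e-09). Sox17, a high-mobility-group factor needed for definitive endoderm (chromosome 1, 4490928 to 4497426), stood at 16.9, 28.6 and 16.4 CPM in the endoderm libraries and 0.5, 0 and 1.35 CPM in the mesoderm libraries (log2 fold change 4.62 ± 0.39 SE, adjusted p = 3.99e-08). All 3 endoderm libraries lay above every mesoderm library for both genes. Gsc, the homeobox gene of the organizer and anterior streak, stood at 16.3, 26.1 and 15.3 CPM in the endoderm libraries and 0.25, 0.517 and 0.844 CPM in the mesoderm libraries (log2 fold change 5.00 ± 0.44 SE, adjusted p = 6.66e-08). Lhx1, a LIM homeobox gene of the same region, reached 49.6, 69 and 58.7 CPM in the endoderm libraries and 5.5, 7.23 and 10.8 CPM in the mesoderm libraries (log2 fold change 2.84 ± 0.20 SE, adjusted p = 3.47e-09). Their mesoderm libraries were low without reaching 0. Foxa1, a close relative of Foxa2, stood at 7, 8.77 and 5.67 CPM in the endoderm libraries and 0, 0 and 0.169 CPM in the mesoderm libraries, which leaves 1 count over the whole mesoderm group (ratio 88.2, 95% counting interval 15.5 to 3520, adjusted p = 2.60e-06). The forkhead gene Foxq1 stood at 17.8, 30.3 and 19.8 CPM in the endoderm libraries and 1, 0 and 0.506 CPM in the mesoderm libraries (log2 fold change 5.22 ± 0.38 SE, adjusted p = 4.82e-09). E2 was the highest endoderm library for each of these 6 genes.

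Further endoderm factors are shared with other tissues. Gata6, a zinc finger factor of primitive and definitive endoderm and of the heart, stood at 18.4, 27 and 21.8 CPM in the endoderm libraries and 2.25, 2.58 and 2.87 CPM in the mesoderm libraries (log2 fold change 3.11 ± 0.27 SE, adjusted p = 6.65e-08). Hhex, a homeobox gene of the anterior endoderm, was counted at 7.88, 9.98 and 6.23 CPM in the endoderm libraries and 1.25, 1.55 and 1.52 CPM in the mesoderm libraries (log2 fold change 2.49 ± 0.39 SE, adjusted p = 0.000115). Otx2, which serves the anterior epiblast as well as anterior endoderm, stood at 102, 120 and 93.2 CPM in the endoderm libraries and 25.8, 12.9 and 13.7 CPM in the mesoderm libraries (log2 fold change 2.57 ± 0.18 SE, adjusted p = 2.03e-09), and M1 was the highest mesoderm library. All 3 separated the directions without overlap. Eomes, the T-box factor that acts upstream of both endoderm and cardiac mesoderm, was high in either direction, at 112, 127 and 119 CPM in the endoderm libraries and 53.3, 59.9 and 61.4 CPM in the mesoderm libraries (log2 fold change 1.04 ± 0.12 SE, adjusted p = 4.04e-06). The endoderm libraries lay above the mesoderm libraries here as well. Gata4 was not called, at 10.2, 11.9 and 12.8 CPM in the endoderm libraries and 8.26, 8.79 and 8.78 CPM in the mesoderm libraries (log2 fold change 0.44 ± 0.23 SE, adjusted p = 0.281). The streak homeobox gene Mixl1 stood at 40.6, 47.5 and 41.7 CPM in the endoderm libraries and 12.3, 33.6 and 38.3 CPM in the mesoderm libraries (log2 fold change 0.63 ± 0.24 SE, adjusted p = 0.108), so that M1 lay well below the other 5 libraries and M2 and M3 close to the endoderm range. A call was added for Mixl1 with no filter on low counts and without M3 (adjusted p over the alternatives 0.000307 to 0.596). Prdm1 and Foxh1 were the other tested members without a call (adjusted p = 0.0579 and 0.355).

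**Figure D2:**
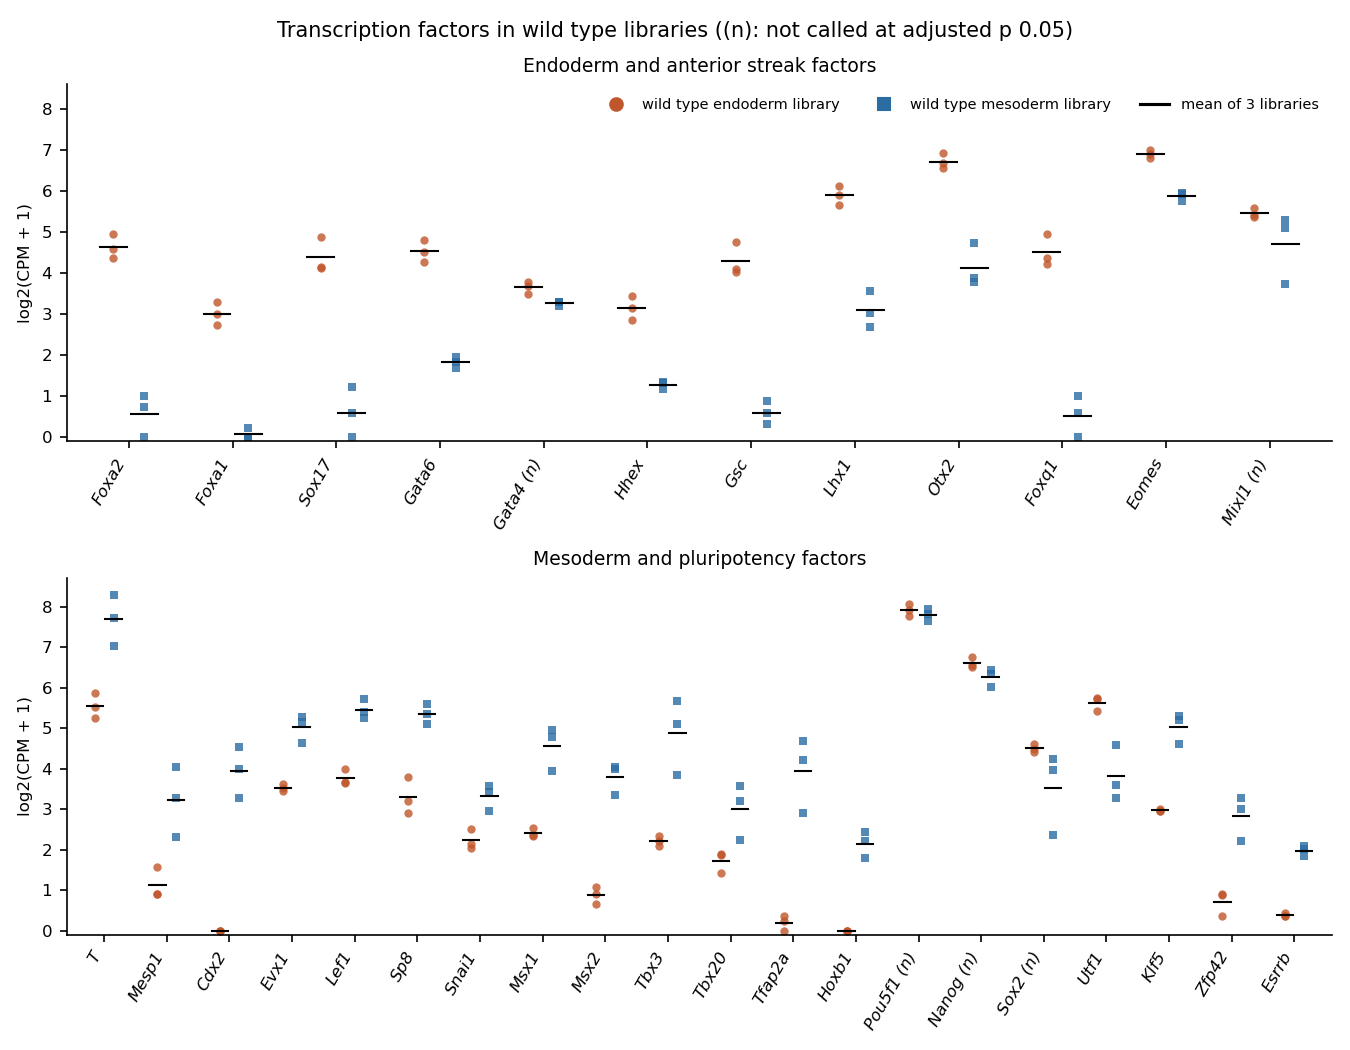
Level of transcription factors in each wild type library as log2(CPM + 1), with circles for the 3 endoderm libraries, squares for the 3 mesoderm libraries and a black line at the mean of each 3 on that scale; genes marked (n) were not called. Foxa2, Sox17 and Gsc are near 0 in mesoderm and Cdx2 and Hoxb1 have no count in endoderm, while Pou5f1 and Nanog are at similar levels in both.

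The posterior streak factors lay on the mesoderm side, and several were present in endoderm too. Of 14 tested, 7 were called higher in mesoderm and Eomes higher in endoderm (median log2 fold change −1.169). T, the T-box factor of the streak and notochord (chromosome 17, 8434423 to 8442496), was counted at 44.9, 37 and 57.5 CPM in the endoderm libraries and 131, 212 and 316 CPM in the mesoderm libraries (log2 fold change −2.27 ± 0.23 SE, adjusted p = 3.48e-07). T was thus present in every endoderm library, and the ranges did not overlap, with M1 the lowest of the mesoderm libraries. Cdx2, the caudal homeobox gene of the posterior body and of trophoblast (chromosome 5, 147300900 to 147307249), had no count in the 3 endoderm libraries and 8.76, 15 and 22.3 CPM in the mesoderm libraries (at least 70.4-fold, adjusted p = 1.96e-07, against 3 counts over the endoderm group). Mesp1, the basic helix-loop-helix factor of the earliest cardiac and cranial mesoderm, stood at 0.876, 0.86 and 1.98 CPM in the endoderm libraries and 4, 15.5 and 8.78 CPM in the mesoderm libraries (log2 fold change −2.85 ± 0.50 SE, adjusted p = 0.000606). Evx1, a posterior homeobox gene, stood at 10.5, 9.98 and 11.3 CPM in the endoderm libraries and 24, 34.6 and 38 CPM in the mesoderm libraries (log2 fold change −1.61 ± 0.24 SE, adjusted p = 8.25e-05). Both Lef1 and Sp8 act in the Wnt response. Lef1, its nuclear effector, was counted at 11.7, 11.5 and 15 CPM in the endoderm libraries and 37.5, 41.3 and 51.6 CPM in the mesoderm libraries (log2 fold change −1.80 ± 0.17 SE, adjusted p = 1.37e-07). Sp8, a zinc finger factor, stood at 8.17, 6.54 and 13 CPM in the endoderm libraries and 33.5, 47.5 and 39.8 CPM in the mesoderm libraries (log2 fold change −2.14 ± 0.23 SE, adjusted p = 1.28e-06). Snai1, which represses E-cadherin during the epithelial-mesenchymal transition, was at 4.67, 3.44 and 3.12 against 9.76, 6.72 and 11 CPM (log2 fold change −1.36 ± 0.35 SE, adjusted p = 0.0127). Tbx6 and Msgn1, factors of paraxial mesoderm, were too low to be tested. Msgn1 held 0 counts in the endoderm group and 48 in the mesoderm group, and Tbx6 6 and 21. Snai1 lost its call without E2 or E3 or M3 (adjusted p over the alternatives 0.000268 to 0.099).

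Most of the listed later mesoderm factors were not tested. Of the 28 listed genes of lateral plate, cardiac and paraxial mesoderm, 8 were tested; 5 (3 without M3) were called higher in mesoderm and Gata6 higher in endoderm (median log2 fold change −1.814). Msx1 and Msx2, homeobox genes that respond to BMP, stood apart. Msx2 was counted at 0.584, 0.86 and 1.13 CPM in the endoderm libraries and 9.26, 15 and 15.5 CPM in the mesoderm libraries (log2 fold change −3.89 ± 0.35 SE, adjusted p = 8.82e-08). Msx1 was counted at 4.09, 4.13 and 4.82 CPM in the endoderm libraries and 14.5, 26.4 and 29.9 CPM in the mesoderm libraries (log2 fold change −2.44 ± 0.32 SE, adjusted p = 1.24e-05). Tbx3, a T-box gene of lateral plate mesoderm that is also active in naive stem cells, stood at 4.09, 3.27 and 3.68 CPM in the endoderm libraries and 13.5, 33.6 and 50.3 CPM in the mesoderm libraries (log2 fold change −3.18 ± 0.37 SE, adjusted p = 3.29e-06), with M1 the lowest mesoderm library for all 3. Tbx20, a cardiac T-box gene (−1.58 ± 0.44, adjusted p = 0.0237), and Prrx1, a limb and mesenchyme homeobox gene (−2.05 ± 0.63, adjusted p = 0.0413), were called at lower levels. Hand1, a factor of extraembryonic and lateral mesoderm, was not tested: it held 1 count in endoderm and 47 in mesoderm. Of the Hox genes, only Hoxb1 passed the filter on low counts, with no count in endoderm and 2.5, 3.62 and 4.39 CPM in mesoderm (at least 15.4-fold, adjusted p = 0.000143, against 3 counts over the endoderm group). Mesoderm receptors did not follow these factors. Kdr, the VEGF receptor of vascular and cardiac progenitors, stood at 3.5, 2.58 and 5.1 CPM in the endoderm libraries and 3.5, 8.79 and 11.5 CPM in the mesoderm libraries (log2 fold change −1.15 ± 0.40 SE, adjusted p = 0.0722). Pdgfra, a receptor of paraxial and cardiac mesoderm, stood at 37.6, 28.9 and 36.8 CPM in the endoderm libraries and 22.8, 34.6 and 37.1 CPM in the mesoderm libraries (log2 fold change 0.11 ± 0.21 SE, adjusted p = 0.829). Aplnr, the apelin receptor of migrating mesendoderm, was counted at 7, 7.05 and 10.5 CPM in the endoderm libraries and 8.51, 20.2 and 15.7 CPM in the mesoderm libraries (log2 fold change −0.81 ± 0.30 SE, adjusted p = 0.102), and for all 3 receptors the libraries of the directions overlapped. Kdr (adjusted p 0.00396 to 0.581) and Aplnr (0.0108 to 0.335) gained a call with no filter and without M1. Tbx20 lost its call without E1 or E2 or E3 or M2 or M3 (adjusted p over the alternatives 0.000563 to 0.144). Prrx1 was not called by DESeq2 and without E2 or E3 or M1 or M3 (adjusted p 2.70e-06 to 0.221).

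The promoters of Cer1, Cdx2 and Mesp1 are shown because Cer1 and Cdx2 were counted in 1 direction only and Mesp1 is a mesoderm gene whose window holds matches to 2 motifs. Each window runs 5′ to 3′ from 250 bases before to 50 bases after the start, in RefSeq coordinates of GRCm38.p6, and capitals mark matches on either strand. The letters searched were CTTTGAT for TCF and LEF, TGTTTAC for forkhead factors and AGGTGTGA for T-box factors, with 3 further motifs given with their shares.
Cer1 promoter, chr4:82885102-82885401, minus strand: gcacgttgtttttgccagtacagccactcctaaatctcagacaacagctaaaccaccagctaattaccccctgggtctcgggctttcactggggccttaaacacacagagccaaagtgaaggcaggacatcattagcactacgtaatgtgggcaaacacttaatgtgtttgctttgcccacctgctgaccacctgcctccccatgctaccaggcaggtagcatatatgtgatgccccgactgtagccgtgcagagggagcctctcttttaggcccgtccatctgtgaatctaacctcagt
Cdx2 promoter, chr5:147307200-147307499, minus strand: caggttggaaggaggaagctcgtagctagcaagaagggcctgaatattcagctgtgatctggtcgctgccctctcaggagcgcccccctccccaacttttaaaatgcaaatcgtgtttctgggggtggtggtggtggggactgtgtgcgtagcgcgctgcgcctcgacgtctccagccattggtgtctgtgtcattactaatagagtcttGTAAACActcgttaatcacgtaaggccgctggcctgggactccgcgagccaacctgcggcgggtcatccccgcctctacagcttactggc
Mesp1 promoter, chr7:79793541-79793840, minus strand: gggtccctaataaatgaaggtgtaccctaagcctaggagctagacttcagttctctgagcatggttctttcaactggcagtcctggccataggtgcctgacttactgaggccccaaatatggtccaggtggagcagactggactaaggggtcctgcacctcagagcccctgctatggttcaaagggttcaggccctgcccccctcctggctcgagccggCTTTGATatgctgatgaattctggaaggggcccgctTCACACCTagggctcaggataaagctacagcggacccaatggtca
The Mesp1 window held 1 TCF and LEF match and, further on, 1 T-box match on the opposite strand. The Cdx2 window held 1 forkhead match on the opposite strand, and the Cer1 window held none of the 6. Windows not shown did not divide by direction. Among endoderm genes, a Foxa2 window held 4 matches and those of Gsc and Lhx1 none. Among mesoderm genes, the Wnt3 window held 1 and those of T and Msx2 none.

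The same motifs were counted in the promoters of all called genes, without a test. The T-box motif was in 1.24% of the 563 promoters of genes called higher in endoderm, 0.939% of the 639 of genes called higher in mesoderm and 0.804% of the 11823 of tested genes (all RefSeq promoters, 1.28%). The forkhead motif was in 2.66%, 3.29%, 2.49% and 3.65% in the same order, and the TCF and LEF motif in 2.49%, 2.35%, 2.38% and 3.73%. For GATA factors, searched as AGATAA, the shares were 5.15%, 6.89%, 5.92% and 11.2%, and for SOX factors, searched as ACAAAG, 15.3%, 16.4%, 13.7% and 18.7%. For FOXH1, searched as AATCCAC, they were 1.78%, 1.88%, 1.76% and 2.49%. A match is a description of the letters and not a binding site, and genes with several starts count once per start.

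The shared pluripotency factors were counted in every library of both directions, without a call. Pou5f1 (Oct4) stood at 268, 217 and 244 CPM in the endoderm libraries and 247, 226 and 199 CPM in the mesoderm libraries (log2 fold change 0.11 ± 0.10 SE, adjusted p = 0.581). Nanog, which is also active in the streak, was at 93.4, 90.8 and 107 CPM in the endoderm libraries and 80.1, 63.6 and 86.2 CPM in the mesoderm libraries (log2 fold change 0.31 ± 0.13 SE, adjusted p = 0.145). Sox2, a partner of Oct4 that is shared with neural cells, stood at 23.3, 21.5 and 20.4 CPM in the endoderm libraries and 18, 4.13 and 14.7 CPM in the mesoderm libraries (log2 fold change 0.66 ± 0.22 SE, adjusted p = 0.0632), with M2 lowest. None of these 3 was called, although Sox2 was by DESeq2, with no filter and without M1 (adjusted p 0.00114 to 0.154), and Nanog with no filter (0.0381 to 0.434). The endoderm libraries lay above the mesoderm libraries for Nanog and Sox2. Naive-state genes were higher in mesoderm. Of 18 tested core and naive pluripotency genes, 11 were called higher in mesoderm and Utf1 alone higher in endoderm (median log2 fold change −1.897). Klf5, a Krüppel-like factor of the naive network, was at 6.71, 7.05 and 6.8 against 23.3, 36.2 and 38.3 CPM (log2 fold change −2.24 ± 0.23 SE, adjusted p = 6.12e-07). Zfp42 (Rex1), a classic marker of naive cells, was at 0.292, 0.86 and 0.85 against 7.01, 3.62 and 8.78 CPM (log2 fold change −3.27 ± 0.50 SE, adjusted p = 8.86e-05). The nuclear receptor Esrrb was at 0.292, 0.344 and 0.283 against 3.25, 2.58 and 3.04 CPM (log2 fold change −3.15 ± 0.62 SE, adjusted p = 0.0014). The ranges of the groups did not overlap for any of the 3. Tfcp2l1 (−1.69 ± 0.32, adjusted p = 0.00096), Dppa5a (−3.19 ± 0.59, adjusted p = 0.000769), Klf2 (−2.84 ± 0.62, adjusted p = 0.00327) and the RNA-binding protein gene Lin28a (−0.42 ± 0.09, adjusted p = 0.0027) were also called higher in mesoderm, together with Tbx3, Fbxo15, Dppa2 and Dppa4. Utf1, a chromatin factor of stem cells, stood at 52.2, 52.5 and 42.2 CPM in the endoderm libraries and 23, 8.79 and 11.1 CPM in the mesoderm libraries (log2 fold change 1.73 ± 0.20 SE, adjusted p = 1.93e-06). Klf2 lost its call without M3 (adjusted p over the alternatives 3.18e-05 to 0.129). Dppa2 was not called without E2 (adjusted p 0.000242 to 0.083). Dppa4 lost its call by DESeq2 and without E2 or M3 (adjusted p 1.74e-05 to 0.183).

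Genes of the primed epiblast lay on the other side. Of 15 tested, 8 were called higher in endoderm and 1 in mesoderm (median log2 fold change 0.725). Fgf5, the fibroblast growth factor that marks the post-implantation epiblast, was counted at 106, 103 and 104 CPM in the endoderm libraries and 18.5, 9.82 and 4.73 CPM in the mesoderm libraries (log2 fold change 3.31 ± 0.24 SE, adjusted p = 4.16e-09). Its mesoderm values ranged widely, with M1 highest. Foxd3, a forkhead factor of the epiblast, was at 17.8, 19.4 and 11.6 against 6.75, 2.58 and 2.19 CPM (log2 fold change 2.10 ± 0.29 SE, adjusted p = 2.87e-05). Zic2, a zinc finger factor, was at 142, 153 and 150 against 88.6, 72.9 and 57.7 CPM (log2 fold change 1.04 ± 0.13 SE, adjusted p = 5.94e-06). Dnmt3b, the DNA methyltransferase of the primed state, was at 594, 649 and 569 against 501, 249 and 178 CPM (log2 fold change 0.96 ± 0.22 SE, adjusted p = 0.00532), and M1 again lay nearest to the endoderm libraries. Otx2, Fzd7, Cldn6 and Sox4 were the other members higher in endoderm. Dnmt3b lost its call by DESeq2 (adjusted p over the alternatives 1.71e-17 to 0.0537).

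Markers of other cell types were read beside these lists. Of 7 tested neural genes, Nes, an intermediate filament gene of neural and other progenitors, was higher in endoderm (0.66 ± 0.11, adjusted p = 0.000278) and Sox11, a SOX factor, higher in mesoderm (−0.39 ± 0.10, adjusted p = 0.017). The neural factor Sox1 held 0 counts in the endoderm group and 2 in the mesoderm group, and Pax6 11 and 5. Sox21 held 31 and 0 and Six3 9 and 1, and all of these were too low to be tested. The 5 neural markers, Nes among them, summed to 122 to 130 CPM in the endoderm libraries and 69.9 to 97.6 CPM in the mesoderm libraries, without overlap; 2 were tested and Nes was the 1 called, and the part of such cells was not tested. Among 6 tested trophoblast genes, 4 were called higher in mesoderm and Eomes higher in endoderm. Tfap2a, an AP-2 factor of surface ectoderm, neural crest and trophoblast, was at 0, 0.172 and 0.283 against 6.5, 24.8 and 17.6 CPM (ratio 95.8, 95% counting interval 26.1 to 798, adjusted p = 4.84e-07). Peg10, an imprinted retrotransposon-derived gene of the placenta, was at 49.3, 54.7 and 67.4 CPM in endoderm and 141, 454 and 491 CPM in mesoderm (log2 fold change −2.66 ± 0.30 SE, adjusted p = 1.67e-06). M1 was the lowest mesoderm library for both. Gata3 was the remaining call besides Cdx2 (−3.01 ± 0.55, adjusted p = 0.000606). The trophoblast markers in the marker set summed to 6.8 to 8.76 CPM in the endoderm libraries and 5.75 to 10.9 CPM in the mesoderm libraries. Tfap2c was the 1 tested among them and was not called. Krt7 held 25 counts in the endoderm group and 4 in the mesoderm group, Elf5 2 and 0, and Gcm1 2 and 5. The part of trophoblast cells was not tested. Extraembryonic endoderm genes were higher in mesoderm where they differed, apart from Gata6. Cubn, the cubilin receptor of visceral endoderm and kidney, was at 9.05, 3.44 and 3.4 against 37, 15 and 30 CPM (log2 fold change −2.52 ± 0.31 SE, adjusted p = 6.14e-06). The endocytic adaptor Dab2 was at 5.25, 2.24 and 2.55 against 18.5, 6.72 and 13.7 CPM (log2 fold change −2.11 ± 0.35 SE, adjusted p = 0.000252), and the apolipoprotein gene Apob was called too (−1.99 ± 0.56, adjusted p = 0.024). The 6 extraembryonic endoderm markers summed to 3.68 to 10.8 CPM in the endoderm libraries and 16.5 to 40.5 CPM in the mesoderm libraries, with E1 and M1 highest in their groups; the part of such cells in these calls was not tested. Germ cell genes gave Alpl, alkaline phosphatase (−2.0 ± 0.30, adjusted p = 8.75e-05), and the helicase gene Ddx4 (−2.25 ± 0.61, adjusted p = 0.0194) as higher in mesoderm and Kit as higher in endoderm. The 4 germ cell markers summed to 0.849 to 1.2 CPM in the endoderm libraries and 3.62 to 4.22 CPM in the mesoderm libraries. Of 6 tested haemato-endothelial genes, 2 were called, and these, Flt1 and Runx1, were higher in endoderm. Runx1, a core-binding factor of blood and other lineages, was at 10.2, 12.7 and 10.5 against 3, 1.03 and 1.35 CPM (log2 fold change 2.58 ± 0.37 SE, adjusted p = 4.09e-05), while the endothelial cadherin gene Cdh5 held 3 and 11 counts. The 6 haemato-endothelial markers summed to 11.6 to 13.8 CPM in the endoderm libraries and 2.58 to 6 CPM in the mesoderm libraries, and the part of such cells in these calls was not tested. Several lists share genes, such as Cdx2, Eomes, Gata6 and Tbx3, which count in each. Sox11 lost its call without E1 or E2 or M2 (adjusted p over the alternatives 0.00275 to 0.0812). Apob was not called without E2 or E3 or M1 or M3 (adjusted p 6.94e-05 to 0.149). Ddx4 lost its call without E2 or E3 or M1 (adjusted p 0.00122 to 0.0753).

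In the Nodal pathway, the inhibitors and co-receptors differed and the ligand did not pass the test. Nodal itself, the TGF-beta family ligand that induces mesendoderm, stood at 39.4, 32.5 and 41.4 CPM in the endoderm libraries and 37.3, 26.4 and 27.3 CPM in the mesoderm libraries (log2 fold change 0.29 ± 0.16 SE, adjusted p = 0.315), with overlapping libraries. Of 20 tested pathway genes, 6 were called higher in endoderm and 2 (1 without E2 or M1) in mesoderm, and the median log2 fold change was 0.136. Cer1, the secreted inhibitor of Nodal, BMP and Wnt made by anterior endoderm (chromosome 4, 82881751 to 82885151), was counted at 54.6, 98.5 and 59.8 CPM in endoderm and had no count in any mesoderm library (at least 301-fold, adjusted p = 7.43e-10, against 3 counts over the mesoderm group). Lefty1 and Lefty2 encode feedback inhibitors of Nodal that Nodal itself induces. Lefty1 (chromosome 1, 180935022 to 180938401) was counted at 81.1, 88.6 and 64.9 CPM in the endoderm libraries and 1.25, 2.07 and 1.18 CPM in the mesoderm libraries (log2 fold change 5.83 ± 0.24 SE, adjusted p = 5.04e-13). Lefty2 (chromosome 1, 180893108 to 180899107) was counted at 16.3, 31.8 and 17.3 CPM in the endoderm libraries and 1.25, 1.03 and 2.53 CPM in the mesoderm libraries (log2 fold change 3.60 ± 0.39 SE, adjusted p = 1.08e-06). E2 was the highest library for all 3. Both EGF-CFC co-receptors of Nodal were higher in endoderm. Tdgf1 (Cripto) stood at 170, 218 and 196 CPM in the endoderm libraries and 89.6, 86.3 and 98.1 CPM in the mesoderm libraries (log2 fold change 1.09 ± 0.17 SE, adjusted p = 0.000114). Cfc1 (Cryptic) was at 9.05, 13.6 and 9.92 against 0, 2.58 and 1.69 CPM (log2 fold change 3.09 ± 0.46 SE, adjusted p = 8.23e-05). Pmepa1, a target of Smad2 and Smad3 that dampens the pathway, was at 48.7, 47.8 and 51.3 against 10.8, 10.9 and 13.5 CPM (log2 fold change 2.03 ± 0.16 SE, adjusted p = 9.38e-09). Follistatin (Fst), which binds activin, was higher in mesoderm, at 28.6, 33.7 and 40.2 against 54.8, 65.1 and 69.7 CPM (log2 fold change −0.89 ± 0.16 SE, adjusted p = 0.000714), as was the ligand gene Gdf3 at low counts (−2.14 ± 0.56, adjusted p = 0.015). The type I and II receptor genes Acvr1b, Acvr2a and Acvr2b and the effectors Smad2, Smad3 and Smad4 had log2 fold changes between −0.15 and 0.12 and were not called. Gdf3 lost its call without E2 or M1 (adjusted p over the alternatives 0.000754 to 0.139).

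Among 11 tested TGF-beta genes, 2 (1 without E2 or M2 or M3) were called higher in endoderm and 1 in mesoderm (median log2 fold change −0.451). Tgfbr3 (betaglycan), a co-receptor that binds TGF-beta and inhibin, stood at 56, 52.8 and 57 CPM in the endoderm libraries and 22.8, 15 and 12.5 CPM in the mesoderm libraries (log2 fold change 1.73 ± 0.20 SE, adjusted p = 3.29e-06). Eng (endoglin), a co-receptor of endothelium and early mesoderm, was at 4.38, 3.44 and 5.1 against 12.8, 8.79 and 11 CPM (log2 fold change −1.40 ± 0.25 SE, adjusted p = 0.000589). The latent TGF-beta binding protein gene Ltbp1 was called with overlapping libraries (0.92 ± 0.27, adjusted p = 0.0289). Ltbp1 lost its call in a fit of the 6 wild type libraries and without E2 or M2 or M3 (adjusted p over the alternatives 2.47e-05 to 0.317).

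Targets of BMP signalling were higher in mesoderm, whereas a BMP inhibitor, a ligand and effectors were higher in endoderm. Of 21 tested genes of the pathway, 7 were called higher in mesoderm and 6 (3 without E2) in endoderm (median log2 fold change −0.301). The Id genes, which encode inhibitors of basic helix-loop-helix factors and are induced directly by Smad1 and Smad5, were all called among those tested. Id1 was counted at 5.84, 5.68 and 5.67 CPM in the endoderm libraries and 30, 53.7 and 47.4 CPM in the mesoderm libraries (log2 fold change −2.90 ± 0.22 SE, adjusted p = 8.03e-09). Id2 was counted at 3.5, 3.1 and 3.12 CPM in the endoderm libraries and 22.3, 39.3 and 27.5 CPM in the mesoderm libraries (log2 fold change −3.14 ± 0.27 SE, adjusted p = 4.55e-08). Id3 was counted at 8.76, 9.46 and 8.5 CPM in the endoderm libraries and 21.3, 27.9 and 18.4 CPM in the mesoderm libraries (log2 fold change −1.26 ± 0.19 SE, adjusted p = 8.10e-05). For each, the 3 endoderm libraries were close to each other and M1 or M3 was the lowest of the mesoderm libraries, still above every endoderm library. Msx1 and Msx2, also BMP targets, belong to this list. Bmper, a modulator of BMP at the cell surface (−2.82 ± 0.58, adjusted p = 0.00218), and the antagonist gene Grem1 (−2.72 ± 0.74, adjusted p = 0.0194) were called higher in mesoderm at low counts. Chordin (Chrd), the BMP inhibitor of the node and anterior streak, was at 10.8, 9.8 and 7.08 CPM in endoderm and 2.25, 1.03 and 0.844 CPM in mesoderm (log2 fold change 2.74 ± 0.39 SE, adjusted p = 4.33e-05). Bmp2, a ligand of anterior endoderm among other tissues, was at 5.55, 7.91 and 4.25 against 0.751, 0 and 1.86 CPM (log2 fold change 2.38 ± 0.46 SE, adjusted p = 0.00111). The groups did not overlap for either gene. Smad1 (0.50 ± 0.11, adjusted p = 0.00496) and Smad5 (0.51 ± 0.12, adjusted p = 0.00811), the effectors of the pathway, and Twsg1, a chordin cofactor (0.47 ± 0.11, adjusted p = 0.00627), were higher in endoderm by small margins. Bmpr2, the type II receptor gene, was close to the threshold (0.45 ± 0.14, adjusted p = 0.0495). Bmp4, the ligand of the posterior streak and extraembryonic ectoderm, was not tested and held 14 and 34 counts in the endoderm and mesoderm groups. Grem1 lost its call by DESeq2 and without E2 or E3 or M1 (adjusted p over the alternatives 4.19e-07 to 0.185). Smad5 was not called without E2 (adjusted p 0.000797 to 0.109). Twsg1 lost its call without E2 or M3 (adjusted p 0.00227 to 0.0618). Bmpr2 was not called with RLE size factors, by DESeq2, in a fit of the 6 wild type libraries, without Mir6236 and Lars2 and without E2 or E3 or M1 or M2 (adjusted p 0.00156 to 0.253).

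The Wnt pathway had calls on both sides: Wnt3, Wnt5a, Axin2 and Lef1 were higher in mesoderm, and Sfrp1, Dkk1 and several Frizzled receptors were higher in endoderm. Of 9 tested ligands, 4 were called higher in mesoderm and Wnt11 higher in endoderm (median log2 fold change −0.935). Wnt3, the ligand that starts the streak (chromosome 11, 103774175 to 103818021), was counted at 20.1, 19.6 and 21.5 CPM in the endoderm libraries and 34, 37.7 and 44 CPM in the mesoderm libraries (log2 fold change −0.94 ± 0.14 SE, adjusted p = 5.08e-05). Wnt5a, a ligand of the non-canonical branch, stood at 2.63, 2.75 and 4.53 CPM in the endoderm libraries and 10.5, 18.6 and 27.3 CPM in the mesoderm libraries (log2 fold change −2.57 ± 0.37 SE, adjusted p = 5.35e-05). Wnt5b (−2.47 ± 0.40, adjusted p = 0.000196) and Rspo3, an R-spondin that boosts Wnt signals (−2.27 ± 0.39, adjusted p = 0.000346), also lay higher in all mesoderm libraries. Wnt11 was low (1.44 ± 0.43, adjusted p = 0.0338), and Wnt3a, the ligand of the late streak, held 1 count in endoderm and 28 in mesoderm and was not tested. Of 16 tested inhibitors and feedback targets, 6 (2 without M3) were called higher in mesoderm and 3 in endoderm. Axin2, the most general feedback target, was at 21.6, 28.2 and 31.7 CPM in endoderm and 47.3, 58.4 and 64.1 CPM in mesoderm (log2 fold change −1.06 ± 0.17 SE, adjusted p = 0.000219). Lef1, Notum, Apcdd1, Nkd1 and Znrf3 were the others. Notum is a secreted inhibitor too, and the 3 inhibitors called higher in endoderm are also secreted. Sfrp1, which binds Wnt ligands, was counted at 30.1, 49 and 30.6 CPM in the endoderm libraries and 3.75, 5.68 and 4.56 CPM in the mesoderm libraries (log2 fold change 3.05 ± 0.22 SE, adjusted p = 4.16e-09). Dkk1, which blocks the Lrp co-receptors and is made by anterior endoderm, was at 16.1, 23 and 10.5 against 1.25, 2.58 and 2.03 CPM (log2 fold change 3.17 ± 0.35 SE, adjusted p = 1.42e-06). Sfrp5 was at 4.09, 5.68 and 2.83 against 0.25, 0 and 0.338 CPM (ratio 17.6, 95% counting interval 5.74 to 88.1, adjusted p = 0.000554). Of 17 tested receptors and co-receptors, 8 were called higher in endoderm and 3 in mesoderm (median log2 fold change 0.297). Fzd5, a Frizzled receptor of early endoderm, stood at 63.6, 104 and 70.8 CPM in the endoderm libraries and 24.5, 12.9 and 18.6 CPM in the mesoderm libraries (log2 fold change 2.05 ± 0.19 SE, adjusted p = 9.75e-08). Fzd8 was at 17.2, 22.9 and 16.2 against 2, 1.03 and 3.21 CPM (log2 fold change 2.97 ± 0.26 SE, adjusted p = 6.95e-08). Fzd7 was at 82.6, 87.7 and 73.7 against 45.8, 28.9 and 35.8 CPM (log2 fold change 1.11 ± 0.12 SE, adjusted p = 1.10e-06). Every endoderm library lay above every mesoderm library for these 3. Fzd2 (1.06 ± 0.18, adjusted p = 0.000281), Fzd3 (0.61 ± 0.18, adjusted p = 0.0331) and Fzd6 (0.64 ± 0.19, adjusted p = 0.0306) went the same way. The R-spondin receptors Lgr4 (0.99 ± 0.13, adjusted p = 1.03e-05) and Lgr5 (3.29 ± 0.58, adjusted p = 0.000448) were also higher in endoderm. In mesoderm the higher receptors were Fzd10 (−1.49 ± 0.20, adjusted p = 2.47e-05), and Ror2 (−1.08 ± 0.21, adjusted p = 0.00113) and Ptk7 (−0.92 ± 0.09, adjusted p = 3.48e-07), both of the planar cell polarity branch. Wnt11 lost its call by DESeq2 and without E1 or E2 or E3 or M2 or M3 (adjusted p over the alternatives 0.00968 to 0.205). Fzd3 was not called by DESeq2 and without E2 or E3 or M2 or M3 (adjusted p 0.00125 to 0.262). Fzd6 lost its call by DESeq2 and without E2 or E3 or M2 or M3 (adjusted p 0.00671 to 0.248). Notum was not called without M3 (adjusted p 0.00011 to 0.07). Apcdd1 lost its call without M3 (adjusted p 8.30e-07 to 0.054). Nkd1 was not called by DESeq2 and without E1 or E2 or E3 or M2 or M3 (adjusted p 0.00835 to 0.117). Znrf3 lost its call by DESeq2 and without E2 or E3 or M3 (adjusted p 0.00489 to 0.329).

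**Figure D3:**
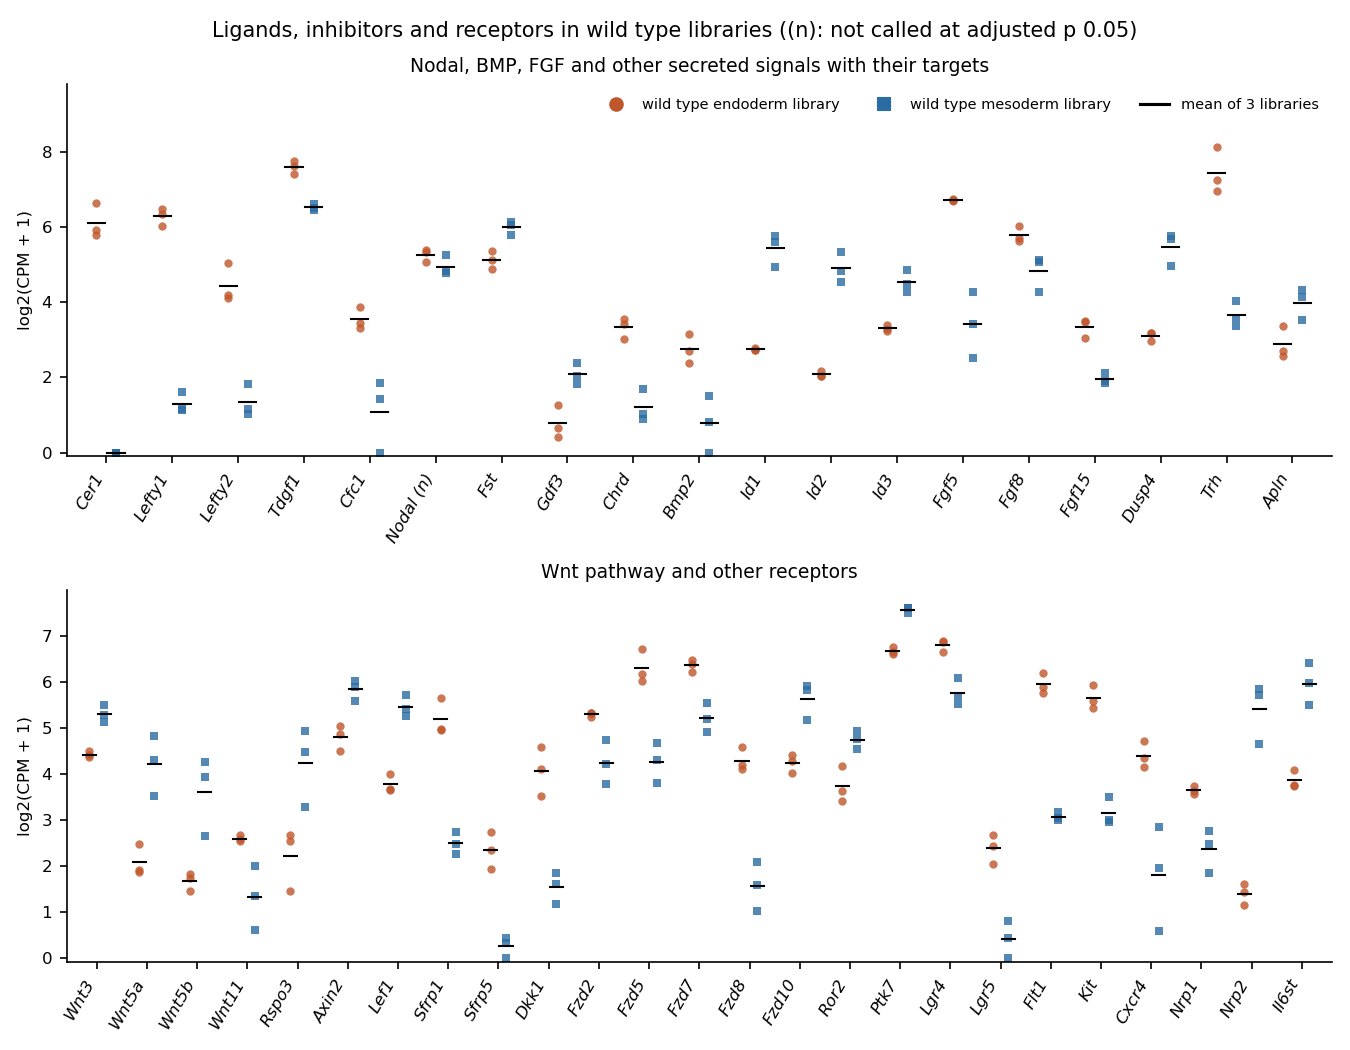
Level of ligands, inhibitors, targets and receptors in each wild type library as log2(CPM + 1), with circles for the 3 endoderm libraries, squares for the 3 mesoderm libraries and a black line at the mean of each 3 on that scale. Nodal, marked (n), was not called, while its inhibitors Cer1, Lefty1 and Lefty2 lie far apart between the groups and the Id genes lie higher in every mesoderm library.

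FGF ligands were higher in endoderm where they differed. Of 7 tested, 4 were called, and these were all higher in endoderm (median log2 fold change 1.088). Besides Fgf5, they were Fgf8, the ligand that drives cells out of the streak, at 48.2, 64.8 and 51.3 CPM in the endoderm libraries and 18.5, 32.6 and 34.1 CPM in the mesoderm libraries (log2 fold change 0.97 ± 0.22 SE, adjusted p = 0.00552), and Fgf15 at 7.3, 10.3 and 10.2 against 2.75, 2.58 and 3.38 CPM (log2 fold change 1.63 ± 0.27 SE, adjusted p = 0.000241). Fgf10, better known from limb and lung, was low (1.09 ± 0.32, adjusted p = 0.0345). Of 17 tested receptors and feedback genes of the ERK branch, 3 were called higher in endoderm and 2 (5 without M1) in mesoderm. Dusp4, a phosphatase of ERK, was at 8.17, 8.08 and 6.8 CPM in endoderm and 30.5, 50.6 and 53 CPM in mesoderm (log2 fold change −2.52 ± 0.20 SE, adjusted p = 1.07e-08). Fgfr1, the main FGF receptor of the epiblast and streak, was at 75.6, 65.5 and 76.8 against 109, 98.2 and 126 CPM (log2 fold change −0.64 ± 0.10 SE, adjusted p = 0.000151). Egr1, an immediate early gene of ERK (1.67 ± 0.35, adjusted p = 0.00248), Etv4, an ETS factor induced by FGF (0.90 ± 0.23, adjusted p = 0.0126), and the feedback inhibitor Il17rd (0.57 ± 0.11, adjusted p = 0.00185) were higher in endoderm, so members of this group lay on both sides. Fgf8 lost its call by DESeq2 and without E2 (adjusted p over the alternatives 1.29e-10 to 0.291). Fgf10 was not called by DESeq2 and without E1 or E2 or E3 or M1 or M2 (adjusted p 0.00899 to 0.152). Etv4 lost its call by DESeq2 and without E2 or M3 (adjusted p 0.0036 to 0.161).

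Other receptors divided evenly: of 29 tested, 4 (7 without M1) were called higher in endoderm and 4 (2 without E2) in mesoderm. Flt1, a VEGF receptor best known from endothelium, was counted at 58.1, 72.6 and 53.3 CPM in the endoderm libraries and 8.01, 7.23 and 6.92 CPM in the mesoderm libraries (log2 fold change 3.07 ± 0.20 SE, adjusted p = 1.11e-09). Kit, the stem cell factor receptor that is sorted for as an endoderm surface marker, stood at 47.3, 60.4 and 42.2 CPM in the endoderm libraries and 10.3, 6.72 and 6.92 CPM in the mesoderm libraries (log2 fold change 2.65 ± 0.21 SE, adjusted p = 1.95e-08). Cxcr4, the chemokine receptor used in the same way (chromosome 1, 128588199 to 128592299), was counted at 19.3, 25.1 and 16.7 CPM in the endoderm libraries and 0.5, 6.2 and 2.87 CPM in the mesoderm libraries (log2 fold change 2.94 ± 0.36 SE, adjusted p = 5.20e-06). The endoderm libraries lay above all mesoderm libraries for the 3 genes, and M2 was the highest mesoderm library for Cxcr4. The neuropilins, co-receptors for semaphorins and VEGF, lay on opposite sides. Nrp2 was at 2.04, 1.2 and 1.7 CPM in endoderm and 24, 51.7 and 56.2 CPM in mesoderm (log2 fold change −4.77 ± 0.45 SE, adjusted p = 1.79e-07). Nrp1 was at 11.4, 12.4 and 10.8 against 5.75, 2.58 and 4.56 CPM (log2 fold change 1.33 ± 0.39 SE, adjusted p = 0.03). Il6st (gp130), the shared receptor of the LIF and interleukin 6 family, was at 12.3, 16 and 12.5 CPM in endoderm and 44.5, 61.5 and 84.6 CPM in mesoderm (log2 fold change −2.22 ± 0.20 SE, adjusted p = 7.10e-08). The groups did not overlap for any of the 3 genes. The collagen receptor gene Ddr1 (−0.60 ± 0.15, adjusted p = 0.00939) and Igf2r, which clears IGF2 (−0.51 ± 0.13, adjusted p = 0.00962), were higher in mesoderm. Of 20 tested other ligands, 1 was called higher in endoderm and 2 (4 without M2 or M3) in mesoderm, a share of 15% against 9.84% over all tested genes. Trh, the thyrotropin-releasing hormone gene, was counted at 151, 278 and 124 CPM in the endoderm libraries and 15.5, 9.3 and 11 CPM in the mesoderm libraries (log2 fold change 3.93 ± 0.30 SE, adjusted p = 6.86e-09), with E2 the highest library. Apln, the apelin ligand (−1.25 ± 0.25, adjusted p = 0.00195), and the growth factor gene Igf2 (−0.99 ± 0.26, adjusted p = 0.0147) were higher in mesoderm. The IGF binding protein genes split: Igfbp5 was at 36.5, 30.1 and 27.2 against 4.25, 3.1 and 1.01 CPM (log2 fold change 3.64 ± 0.33 SE, adjusted p = 9.63e-08) and Igfbp2 also higher in endoderm (1.29 ± 0.20, adjusted p = 9.17e-05), whereas Igfbp3 was at 98.1, 103 and 92.1 CPM in endoderm and 157, 232 and 331 CPM in mesoderm (log2 fold change −1.30 ± 0.19 SE, adjusted p = 4.81e-05). Nrp1 lost its call without E1 or E2 or E3 or M2 or M3 (adjusted p over the alternatives 1.30e-05 to 0.118). Ddr1 was not called without E2 or E3 (adjusted p 0.0015 to 0.0776). Igf2r lost its call without E2 or M3 (adjusted p 0.000172 to 0.0676). Igf2 was not called without E2 or E3 (adjusted p 0.00109 to 0.131).

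Of 13 tested Notch genes, 3 were called higher in endoderm and 3 in mesoderm. The ligand Jag1 was at 30.9, 44.4 and 31.2 against 15.8, 10.9 and 10.8 CPM (log2 fold change 1.52 ± 0.17 SE, adjusted p = 2.08e-06), and Hes1, a target of the pathway (0.97 ± 0.16, adjusted p = 0.00023), and Notch3 (0.92 ± 0.16, adjusted p = 0.000471) were higher in endoderm with it. The receptors Notch1 (−0.79 ± 0.14, adjusted p = 0.00046) and Notch2 (−0.43 ± 0.09, adjusted p = 0.0017) and Dll1, the ligand of presomitic mesoderm (−1.36 ± 0.36, adjusted p = 0.0156), were higher in mesoderm. In the Hedgehog pathway, with 10 genes tested, 3 (1 without M3) were higher in mesoderm and 1 in endoderm. Gli3, the factor that mainly represses targets, was at 36.8, 42.8 and 44.8 against 69.6, 83.2 and 87.4 CPM (log2 fold change −0.94 ± 0.13 SE, adjusted p = 2.84e-05), and the co-receptor genes Cdon and Boc were on its side, Gli2 on the other (0.77 ± 0.22, adjusted p = 0.0245). The ligand Shh had no count in any of the 6 libraries. Retinoid genes, 9 tested, gave 2 higher in endoderm and 2 (1 without E2 or E3 or M2) in mesoderm. Cyp26a1, the enzyme that degrades retinoic acid (2.04 ± 0.40, adjusted p = 0.00125), and Dhrs3, a retinaldehyde reductase (2.35 ± 0.38, adjusted p = 0.000206), were higher in endoderm. The retinoic acid binding protein gene Crabp2 was higher in mesoderm (−2.03 ± 0.41, adjusted p = 0.00167). Dll1 lost its call without E2 or M3 (adjusted p over the alternatives 0.000332 to 0.152). Gli2 was not called without E1 or E3 or M2 or M3 (adjusted p 4.36e-05 to 0.213). Cdon lost its call by DESeq2 and without E3 or M3 (adjusted p 0.0023 to 0.213). Boc was not called by DESeq2 and without E1 or E3 or M3 (adjusted p 0.00469 to 0.119).

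Guidance molecules were called more on the endoderm side. Of 30 tested semaphorins, Slits, netrins and receptors, 7 were higher in endoderm and Unc5b in mesoderm (median log2 fold change 0.182). The share called was 26.7%, against 9.84% over all tested genes. Sema6d was at 21.9, 26 and 19.8 against 3.5, 2.07 and 3.88 CPM (log2 fold change 2.73 ± 0.25 SE, adjusted p = 1.21e-07). Netrin 1 (Ntn1) was at 24.5, 26.5 and 22.1 against 4.25, 4.13 and 4.05 CPM (log2 fold change 2.56 ± 0.26 SE, adjusted p = 3.48e-07). Sema6a (1.49 ± 0.21, adjusted p = 2.99e-05), Sema3c (2.08 ± 0.33, adjusted p = 0.000166), Sema3e (1.57 ± 0.27, adjusted p = 0.00038), Slit3 (0.67 ± 0.12, adjusted p = 0.00042) and Slit1 (2.12 ± 0.44, adjusted p = 0.00218) followed, and the netrin receptor gene Unc5b was the exception (−0.59 ± 0.11, adjusted p = 0.00113). Among 16 tested Eph receptors and ephrins, 2 were higher in endoderm and 2 (4 without E1, 5 without M1) in mesoderm, a share of 25%. Epha4 (−1.52 ± 0.20, adjusted p = 1.18e-05) and Ephb4 (−0.87 ± 0.12, adjusted p = 4.03e-05) were higher in mesoderm, Epha2 (0.84 ± 0.18, adjusted p = 0.0026) and Ephb2 (0.83 ± 0.16, adjusted p = 0.00129) in endoderm. Slit1 lost its call without E2 (adjusted p over the alternatives 4.63e-05 to 0.0554).

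In the matrix, fibronectin was higher in mesoderm and the protease Adamts9 higher in endoderm. Fn1, fibronectin, on which mesoderm cells migrate (chromosome 1, 71585473 to 71653280), was counted at 216, 204 and 286 CPM in the endoderm libraries and 412, 428 and 860 CPM in the mesoderm libraries (log2 fold change −1.28 ± 0.27 SE, adjusted p = 0.00246). M3 lay far above M1 and M2, and no libraries overlapped. Adamts9, a secreted protease that cleaves versican and aggrecan, was counted at 84.9, 105 and 80.5 CPM in the endoderm libraries and 9.76, 7.75 and 6.41 CPM in the mesoderm libraries (log2 fold change 3.53 ± 0.16 SE, adjusted p = 2.98e-12). Of 26 tested glycoproteins and proteoglycans, 4 were called higher in mesoderm and 1 in endoderm (median log2 fold change −0.428). Has2, the hyaluronan synthase of migrating mesoderm, was at 22.5, 16.5 and 19.6 against 31.8, 48.1 and 39.2 CPM (log2 fold change −1.01 ± 0.19 SE, adjusted p = 0.000875), and Efemp1 (fibulin 3) was also higher in mesoderm (−1.09 ± 0.23, adjusted p = 0.00312). Sparcl1 had no count in endoderm and 2.5, 1.03 and 2.53 CPM in mesoderm (at least 9.69-fold, adjusted p = 0.00253, against 3 counts over the endoderm group). The exception was Mfap4, a microfibril protein gene (1.30 ± 0.37, adjusted p = 0.0252). Basement membrane genes divided: of 19 tested, 5 (8 without E1) were higher in mesoderm and 3 in endoderm (median log2 fold change −0.42). Lama5, the laminin alpha 5 chain, was at 322, 351 and 340 against 218, 205 and 262 CPM (log2 fold change 0.56 ± 0.11 SE, adjusted p = 0.00186), and Lamc1 (0.44 ± 0.12, adjusted p = 0.016) and Egflam (pikachurin) (2.44 ± 0.49, adjusted p = 0.0015) were on the same side. Perlecan (Hspg2) was at 163, 151 and 159 CPM in endoderm and 208, 200 and 221 CPM in mesoderm (log2 fold change −0.42 ± 0.09 SE, adjusted p = 0.00434), with agrin (Agrn, −0.61 ± 0.11, adjusted p = 0.000599), nidogen 2 (Nid2, −0.76 ± 0.15, adjusted p = 0.00112), Fras1 (−0.94 ± 0.16, adjusted p = 0.000416) and Frem2 (−0.54 ± 0.12, adjusted p = 0.0037). All of these basement membrane genes except Egflam differed by less than 2-fold. Mfap4 lost its call by DESeq2 and without E1 or E3 or M1 or M2 (adjusted p over the alternatives 0.0063 to 0.102). Lamc1 was not called without E2 or M2 or M3 (adjusted p 0.000325 to 0.0904).

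Of 21 tested collagens, 2 (1 without E2) were called higher in endoderm and 2 (1 without E2 or E3 or M1) in mesoderm, with a median log2 fold change of −0.576. The share called was 19%, against 9.84% over all tested genes. Col2a1, the collagen of cartilage and notochord (1.08 ± 0.24, adjusted p = 0.00383), and Col23a1 (1.67 ± 0.39, adjusted p = 0.00542) were higher in endoderm. Col18a1, the basement membrane collagen that holds endostatin (−0.69 ± 0.13, adjusted p = 0.000741), and Col6a1 (−2.29 ± 0.68, adjusted p = 0.0342) were higher in mesoderm. Col1a1, with a log2 fold change of −0.99, was not called (adjusted p = 0.269). The 8 fibroblast and feeder markers, which include collagens, summed to 73.3, 18.7 and 27.8 CPM in E1 to E3 and to 99.8, 22.7 and 45.6 CPM in M1 to M3. E1 and M1 were thus highest, none of the 8 was at 0, and 1 of the 6 tested was called, Thy1 (−1.90 ± 0.52, adjusted p = 0.0191), which is also the single call among 12 genes of the wider fibroblast list. Their part in the collagen values was not tested. Of 33 tested proteases, inhibitors and cross-linkers, 3 were higher in endoderm and 1 in mesoderm, a share of 12.1% against 9.84% over all genes. Besides Adamts9 these were the transglutaminase Tgm2 (1.82 ± 0.36, adjusted p = 0.00158), the membrane-bound metalloprotease Mmp25 (1.05 ± 0.22, adjusted p = 0.00232) and, in mesoderm, Adamts15 (−1.47 ± 0.29, adjusted p = 0.00145). Of 22 tested glypicans, syndecans and heparan sulfate enzymes, 9.09% were called, near the 9.84% over all tested genes. Gpc4, a glypican of embryonic stem cells, was at 35, 51.6 and 38.3 against 14.5, 6.72 and 8.1 CPM (log2 fold change 2.07 ± 0.22 SE, adjusted p = 6.18e-07). Extl3 was higher in mesoderm (−0.47 ± 0.12, adjusted p = 0.0103). Of 12 tested integrin genes, edgeR called 0 and DESeq2 0, with 5 at an unadjusted p under 0.05 and fitted log2 fold changes from −1.21 to 0.66. Col23a1 lost its call without E2 (adjusted p over the alternatives 0.000377 to 0.0996). Col6a1 was not called by DESeq2 and without E2 or E3 or M1 (adjusted p 5.11e-18 to 0.205). Thy1 lost its call without E1 or E2 or M1 (adjusted p 0.000374 to 0.14). Mmp25 was not called without M3 (adjusted p 1.21e-06 to 0.0544). Extl3 lost its call without E3 or M3 (adjusted p 0.00389 to 0.155).

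Vimentin was higher in mesoderm, while P-cadherin and claudins were higher in endoderm. Of 23 tested cadherins, claudins, keratins and related genes, 4 were called higher in endoderm and Vim in mesoderm. Vim, the intermediate filament gene of mesenchyme, was counted at 39.1, 24.4 and 29.8 CPM in the endoderm libraries and 93.3, 92 and 113 CPM in the mesoderm libraries (log2 fold change −1.72 ± 0.25 SE, adjusted p = 6.92e-05). Cdh3, P-cadherin, was at 16.9, 17.2 and 21.3 against 11, 6.2 and 6.24 CPM (log2 fold change 1.21 ± 0.19 SE, adjusted p = 0.000166). Esrp1, a splicing factor of epithelia, was at 73.5, 78.1 and 77.9 against 48, 55.3 and 48.1 CPM (log2 fold change 0.62 ± 0.10 SE, adjusted p = 0.00019). The tight junction gene Cldn6 (0.72 ± 0.12, adjusted p = 0.00026) was higher in endoderm with Cldn7 (0.52 ± 0.16, adjusted p = 0.0429). E-cadherin (Cdh1) had a log2 fold change of 0.04 ± 0.10 (adjusted p = 0.885) and N-cadherin (Cdh2) one of 0.62 ± 0.26 (adjusted p = 0.156), so neither cadherin of the epithelial-mesenchymal transition was called. Of 16 tested actin and contractile genes, 2 (1 without E2 or E3 or M1) were called, Myh9, a non-muscle myosin (0.47 ± 0.09, adjusted p = 0.00113), and Tpm4 (0.31 ± 0.09, adjusted p = 0.0315), both higher in endoderm. That share, 12.5%, was near the 9.84% over all tested genes. Cldn7 lost its call by DESeq2, in a fit of the 6 wild type libraries and without E2 or E3 or M2 or M3 (adjusted p over the alternatives 0.00935 to 0.367). Tpm4 was not called by DESeq2, in a fit of the 6 wild type libraries and without E2 or E3 or M1 or M2 or M3 (adjusted p 0.017 to 0.147).

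Metabolic lists differed in the share of tested members called, against 9.84% over all tested genes. It was 33.3% for amino acid synthesis and transport and 25% for serine, glycine and one-carbon metabolism. Other metabolic lists, given below, had no call. Slc7a3, a transporter of arginine and lysine, was counted at 46.7, 63.1 and 53.6 CPM in the endoderm libraries and 20.3, 7.75 and 6.75 CPM in the mesoderm libraries (log2 fold change 2.24 ± 0.24 SE, adjusted p = 1.19e-06), with M1 the highest mesoderm library. Of 24 tested genes of amino acid synthesis and transport, 6 (3 without E1 or M2 or M3) were called higher in endoderm and 2 (1 without M3, 4 without M1) in mesoderm (median log2 fold change 0.201). Glutamine synthetase (Glul) was at 57.8, 61.7 and 57.8 against 80.8, 92 and 75.4 CPM (log2 fold change −0.46 ± 0.10 SE, adjusted p = 0.00225). The leucine transporter gene Slc7a5 (0.43 ± 0.11, adjusted p = 0.0139), the transsulfuration gene Cbs (0.78 ± 0.22, adjusted p = 0.0259) and Gpt2 (0.55 ± 0.17, adjusted p = 0.0392) were higher in endoderm, and Cth, the enzyme after Cbs, in mesoderm (−1.35 ± 0.27, adjusted p = 0.00163). In serine, glycine and one-carbon metabolism, 20 genes were tested, 4 (1 without E1 or E2 or M2 or M3, 2 without E3) were higher in endoderm and Tdh in mesoderm. Tdh, the threonine dehydrogenase on which mouse stem cells depend, was at 2.92, 1.38 and 2.55 against 11.5, 8.27 and 8.61 CPM (log2 fold change −2.14 ± 0.47 SE, adjusted p = 0.00339). Gcat, which acts on the product of Tdh, was at 41.7, 33.2 and 35.1 against 27, 22.7 and 20.4 CPM (log2 fold change 0.65 ± 0.14 SE, adjusted p = 0.00236). Psat1 (0.48 ± 0.13, adjusted p = 0.0192), Mthfd2 (0.61 ± 0.19, adjusted p = 0.0472) and Shmt2 (0.35 ± 0.11, adjusted p = 0.048) were close to the threshold. Slc7a5 lost its call without E1 or M2 or M3 (adjusted p over the alternatives 0.000762 to 0.116). Cbs was not called by DESeq2, in a fit of the 6 wild type libraries and without E1 or E3 or M1 or M2 or M3 (adjusted p 0.0181 to 0.133). Gpt2 lost its call by DESeq2, in a fit of the 6 wild type libraries and without E1 or E2 or E3 or M2 or M3 (adjusted p 0.00109 to 0.267). Cth was not called without M3 (adjusted p 5.87e-08 to 0.0516). Psat1 lost its call in a fit of the 6 wild type libraries and without E1 or E2 or M2 or M3 (adjusted p 8.70e-05 to 0.23). Mthfd2 was not called by DESeq2, in a fit of the 6 wild type libraries and without E1 or E2 or E3 or M2 or M3 (adjusted p 0.00998 to 0.362). Shmt2 lost its call in all 12 alternatives (adjusted p 0.0507 to 0.239).

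Of 25 tested genes of glycolysis and glucose uptake, 4 (2 without M3) were called, all of these higher in endoderm (median log2 fold change 0.108). The share called was 16%, against 9.84% over all tested genes. Hexokinase 2 (Hk2) was at 73.3, 68.1 and 68.9 against 52.5, 47 and 42.2 CPM (log2 fold change 0.57 ± 0.10 SE, adjusted p = 0.000604). Lactate dehydrogenase A (Ldha) was at 515, 527 and 450 against 380, 371 and 261 CPM (log2 fold change 0.57 ± 0.12 SE, adjusted p = 0.00237). The lactate carrier Slc16a1 (0.50 ± 0.12, adjusted p = 0.0067) and the isomerase Tpi1 (0.41 ± 0.10, adjusted p = 0.0108) were the others, and with the oxygen sensor Egln1 (0.83 ± 0.19, adjusted p = 0.00509) Hk2 and Ldha make up the 3 calls among 18 hypoxia-responsive genes (16.7%). Each of these differences was under 2-fold. Of 33 tested genes of fatty acid metabolism, 3 were higher in endoderm and 3 (0 without E2 or M3) in mesoderm, a share of 18.2%. Acsl4, which activates arachidonic acid, was at 65.1, 84.4 and 75.9 against 32.3, 38.8 and 30 CPM (log2 fold change 1.21 ± 0.17 SE, adjusted p = 4.25e-05). Cpt1a, which carries fatty acids into mitochondria, was at 30.6, 28.7 and 23.5 against 11.5, 15 and 13 CPM (log2 fold change 1.10 ± 0.17 SE, adjusted p = 0.000115). Acly (0.30 ± 0.09, adjusted p = 0.0363) was higher in endoderm, and Cd36 (−2.48 ± 0.59, adjusted p = 0.00701), Acsl3 (−0.38 ± 0.10, adjusted p = 0.0127) and Hadha (−0.39 ± 0.11, adjusted p = 0.0281) in mesoderm. In cholesterol synthesis, 23 genes tested, Cyp51 (0.46 ± 0.12, adjusted p = 0.0112) and Idi1 (0.37 ± 0.10, adjusted p = 0.0196) were higher in endoderm and Hsd17b7 (−0.79 ± 0.24, adjusted p = 0.0342) in mesoderm. Slc16a1 lost its call without E2 or M3 (adjusted p over the alternatives 0.000101 to 0.106). Tpi1 was not called without E1 or M3 (adjusted p 0.00205 to 0.109). Acly lost its call in a fit of the 6 wild type libraries and without E1 or E2 or E3 or M2 or M3 (adjusted p 0.027 to 0.163). Cd36 was not called without E2 or M3 (adjusted p 2.57e-07 to 0.0788). Acsl3 lost its call without E2 or M3 (adjusted p 0.00592 to 0.102). Hadha was not called with no filter, by DESeq2, in a fit of the 6 wild type libraries and without E2 or E3 or M2 or M3 (adjusted p 0.013 to 0.139). Cyp51 lost its call without M3 (adjusted p 0.00105 to 0.114). Idi1 was not called without E3 or M2 or M3 (adjusted p 0.00624 to 0.108). Hsd17b7 lost its call by DESeq2, in a fit of the 6 wild type libraries and without E1 or E2 or E3 or M2 or M3 (adjusted p 7.26e-05 to 0.484).

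Several large groups gave no call by edgeR or by DESeq2. They were 68 nuclear-encoded genes of oxidative phosphorylation, 22 of the tricarboxylic acid cycle, 26 of nucleotide synthesis and the pentose phosphate path, 76 cytosolic ribosomal proteins, 24 G1-S genes and 24 mitotic genes. At an unadjusted p under 0.05, the members higher in endoderm and in mesoderm numbered 4 and 0 for oxidative phosphorylation, 3 and 1 for the cycle, 2 and 0 for nucleotide synthesis, 2 and 0 for ribosomal proteins, 0 and 3 for G1-S genes and 0 and 3 for mitotic genes. The fitted log2 fold changes of the ribosomal proteins ran from 0.01 to 0.33 (median 0.139), and those of oxidative phosphorylation from −0.13 to 0.51 (median 0.095). Both cell cycle lists lay between −0.34 and 0.26, with medians of −0.098 and −0.066. Of 18 tested p53 targets, Trp53inp1 was called higher in mesoderm (−0.34 ± 0.11, adjusted p = 0.0436). That share, 5.56%, was below the 9.84% over all tested genes. Trp53inp1 lost its call by DESeq2 and without E1 or E2 or E3 or M2 or M3 (adjusted p over the alternatives 0.0218 to 0.171).

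**Figure D4:**
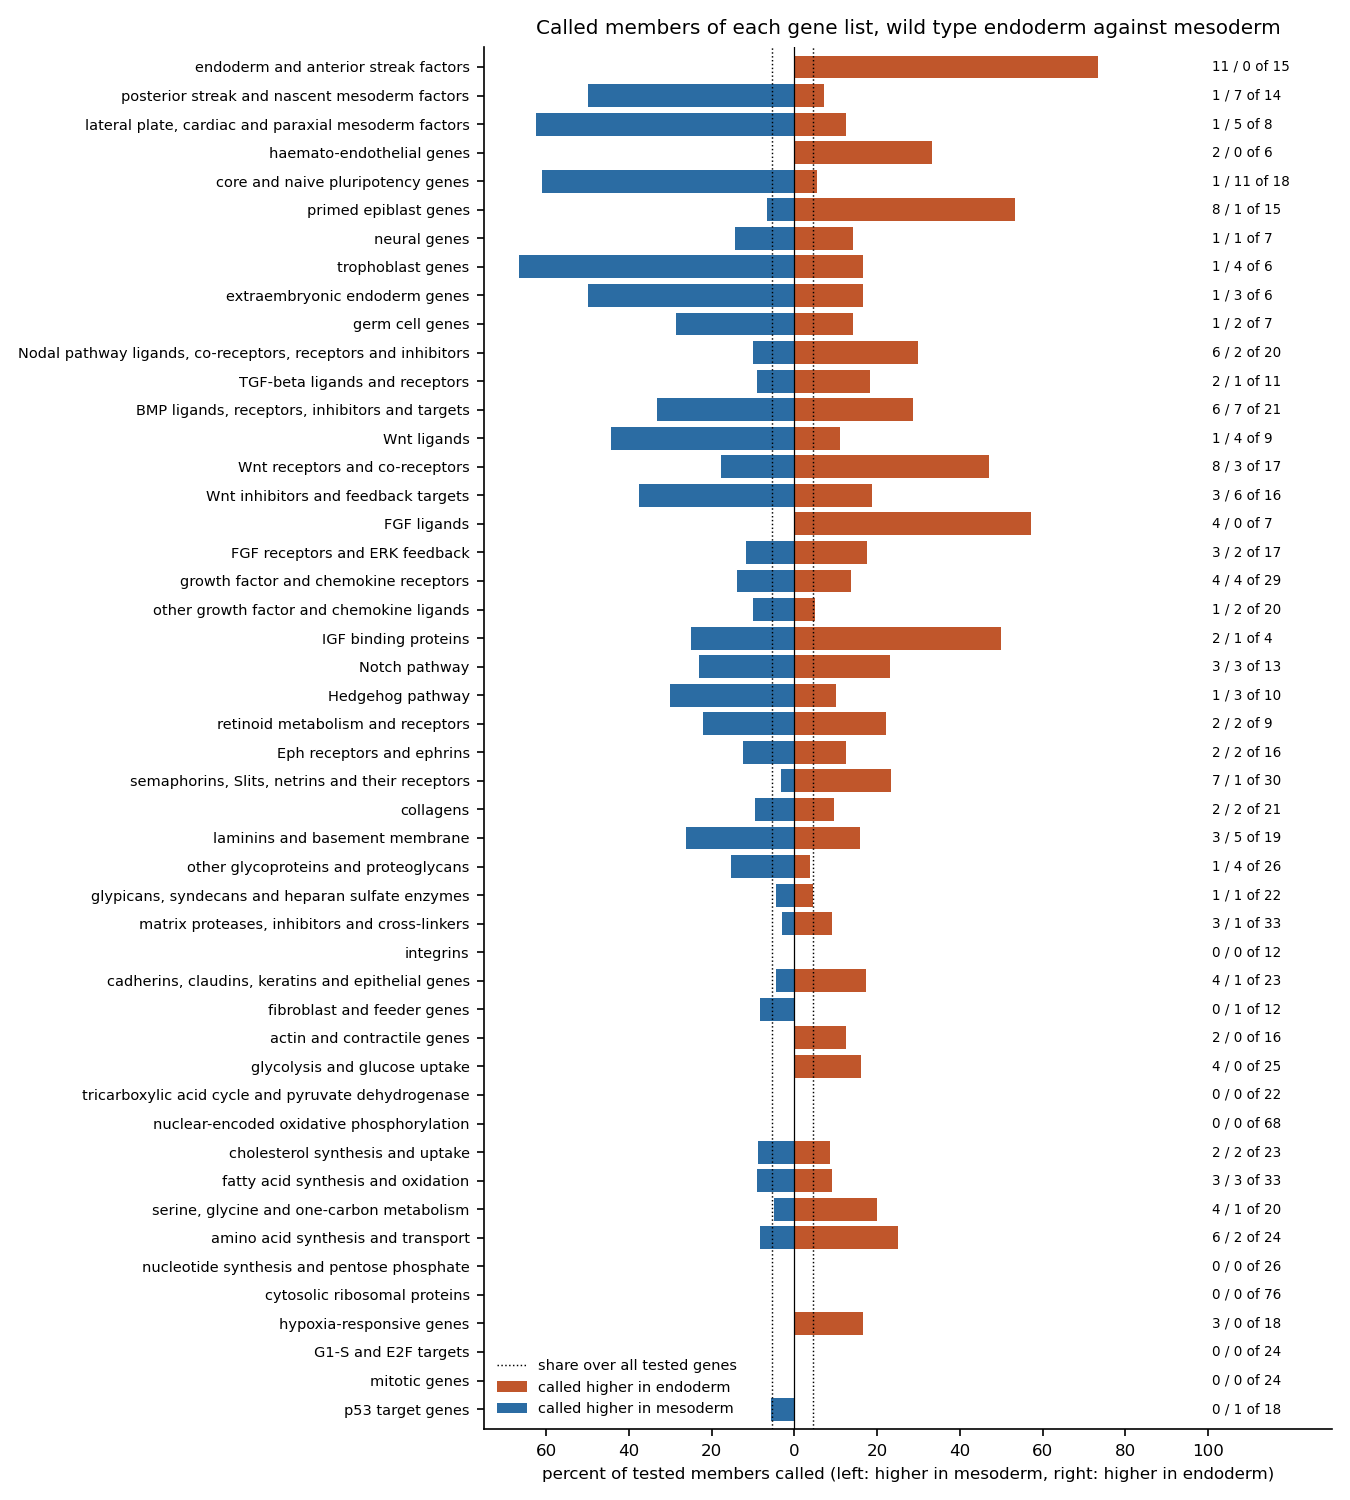
Percent of the tested members of each gene list that were called higher in endoderm (red, to the right) or higher in mesoderm (blue, to the left), with dotted lines at the shares over all tested genes, 4.41% and 5.43%; the figures at the right give the calls in endoderm and in mesoderm and the number tested, for lists with at least 3 tested members. Endoderm factors reach 11 of 15 to the right, while oxidative phosphorylation and ribosomal proteins have no bar.

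Among the 10 largest fitted differences in each direction were genes outside the lists. In endoderm these were Rgs8, a regulator of G protein signalling with 6.71, 8.08 and 8.5 CPM and no count in mesoderm (at least 31-fold, adjusted p = 9.45e-07, against 3 counts over the group), Lypd6b, a member of the LY6 family (ratio 72.4, 95% counting interval 12.6 to 2897, adjusted p = 1.05e-06), and Doc2b, a calcium sensor of vesicle fusion (ratio 65.9, 95% counting interval 11.5 to 2640, adjusted p = 9.24e-06). The other 7 were Cer1, Foxa1, Lefty1, Foxq1, Foxa2, Gsc and Sox17, all of them listed genes of the endoderm or of the Nodal pathway. In mesoderm they included small proline-rich protein genes, which epithelia use to build the cornified envelope. Sprr2a1 and Sprr2a2 had the same count in every library, 0.584, 0 and 1.13 CPM in endoderm and 21.5, 86.8 and 143 CPM in mesoderm (log2 fold change −7.41 ± 0.73 SE, adjusted p = 2.90e-07), so their reads cannot be told apart. Sprr2a3 had no count in endoderm and 2.75, 6.72 and 17.2 CPM in mesoderm (at least 45.2-fold, adjusted p = 3.99e-05, against 3 counts over the group). Cyp2s1, a cytochrome P450 of epithelia, was at 0.584, 0.516 and 0.283 against 7.51, 14.5 and 15.5 CPM (log2 fold change −4.64 ± 0.47 SE, adjusted p = 3.96e-07). Cpxm2, a carboxypeptidase-like secreted protein (−5.04 ± 0.59, adjusted p = 3.11e-06), and Alox12e, an epidermal lipoxygenase (−4.13 ± 0.66, adjusted p = 0.000166), stood beside Cdx2, Tfap2a and Nrp2, and M1 was the lowest mesoderm library for each of Cyp2s1, Cpxm2 and Alox12e.

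The same contrast was read in the libraries labelled knockout, and the difference between genotypes was tested gene by gene. Arid4b itself was counted at 36.8 to 51.1 CPM over the 12 libraries, so whole-gene counts cannot check the deletion, and "knockout" stands for that label. In knockout, 215 genes (1.85%) were called between endoderm and mesoderm, and for 163 genes (1.40%) the contrast differed between genotypes, a number that was 105 without E2, 354 without M1 and 377 with no filter on low counts. Of the 1145 genes called in wild type, 137 were called in knockout too, 12% of the wild type calls and 63.7% of the knockout calls, 132 in the same direction and 5 in the opposite one. Genes called higher in endoderm in wild type, where they were chosen, had a median log2 fold change of 0.937 there and 0.247 in knockout, and those called higher in mesoderm −1.172 and −0.318. Of the wild type calls, 151 also had a called difference between genotypes, and for 146 of these the wild type contrast was the larger. Choosing genes by a wild type call and a called difference favours that outcome, so the number is no test of a smaller contrast in knockout. Lefty1, Otx2, Eomes, Flt1 and Adamts9, all higher in wild type endoderm, were among them. The log2 fold change of Lefty1 was 5.83 ± 0.24 in wild type and 1.37 ± 0.18 in knockout (difference 4.46 ± 0.35, adjusted p = 2.30e-07). That of Otx2 was 2.57 ± 0.18 in wild type and 0.37 ± 0.15 in knockout (difference 2.20 ± 0.23, adjusted p = 8.76e-06). Eomes had 1.04 ± 0.12 in wild type and −0.11 ± 0.18 in knockout (difference 1.15 ± 0.22, adjusted p = 0.00699). Flt1 had 3.07 ± 0.20 in wild type and −0.65 ± 0.29 in knockout (difference 3.71 ± 0.37, adjusted p = 3.57e-06), and Adamts9 3.53 ± 0.16 in wild type and 0.42 ± 0.23 in knockout (difference 3.11 ± 0.30, adjusted p = 2.62e-06). In all 5, chosen in the same way, the fitted contrast in knockout was the smaller in size. Tdgf1 had opposite signs, with 1.09 ± 0.17 in wild type and −1.17 ± 0.19 in knockout (difference 2.25 ± 0.25, adjusted p = 1.49e-05). Lefty2 did so too, with 3.60 ± 0.39 in wild type and −0.99 ± 0.33 in knockout (difference 4.59 ± 0.52, adjusted p = 2.06e-05). On the mesoderm side, Nrp2 had −4.77 ± 0.45 in wild type and −0.44 ± 0.49 in knockout (difference −4.33 ± 0.73, adjusted p = 0.0016), Il6st −2.22 ± 0.20 in wild type and −0.43 ± 0.22 in knockout (difference −1.79 ± 0.30, adjusted p = 0.00151) and Lef1 −1.80 ± 0.17 in wild type and −0.59 ± 0.19 in knockout (difference −1.21 ± 0.26, adjusted p = 0.014). For Id1, Axin2, Msx1 and Igfbp5, named after their values were seen, the fitted contrasts lay close together. Id1 had −2.90 ± 0.22 in wild type and −2.92 ± 0.26 in knockout, with a difference of 0.02 ± 0.29 (adjusted p = 0.997). Axin2 had −1.06 ± 0.17 in wild type and −1.20 ± 0.24 in knockout (difference 0.14 ± 0.30, adjusted p = 0.933), Msx1 −2.44 ± 0.32 in wild type and −2.63 ± 0.52 in knockout (difference 0.18 ± 0.58, adjusted p = 0.961) and Igfbp5 3.64 ± 0.33 in wild type and 3.35 ± 0.22 in knockout (difference 0.29 ± 0.46, adjusted p = 0.906). A difference that missed the threshold does not show that the contrasts were equal, and neither does it for Foxa2, Sox17, Gsc and Mesp1, none of which exceeded 1.46 CPM in any knockout library. T was low there too, at 1.46, 0.679 and 1.22 CPM in the endoderm and 3.65, 2.78 and 7.76 CPM in the mesoderm libraries labelled knockout.

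**Figure D5:**
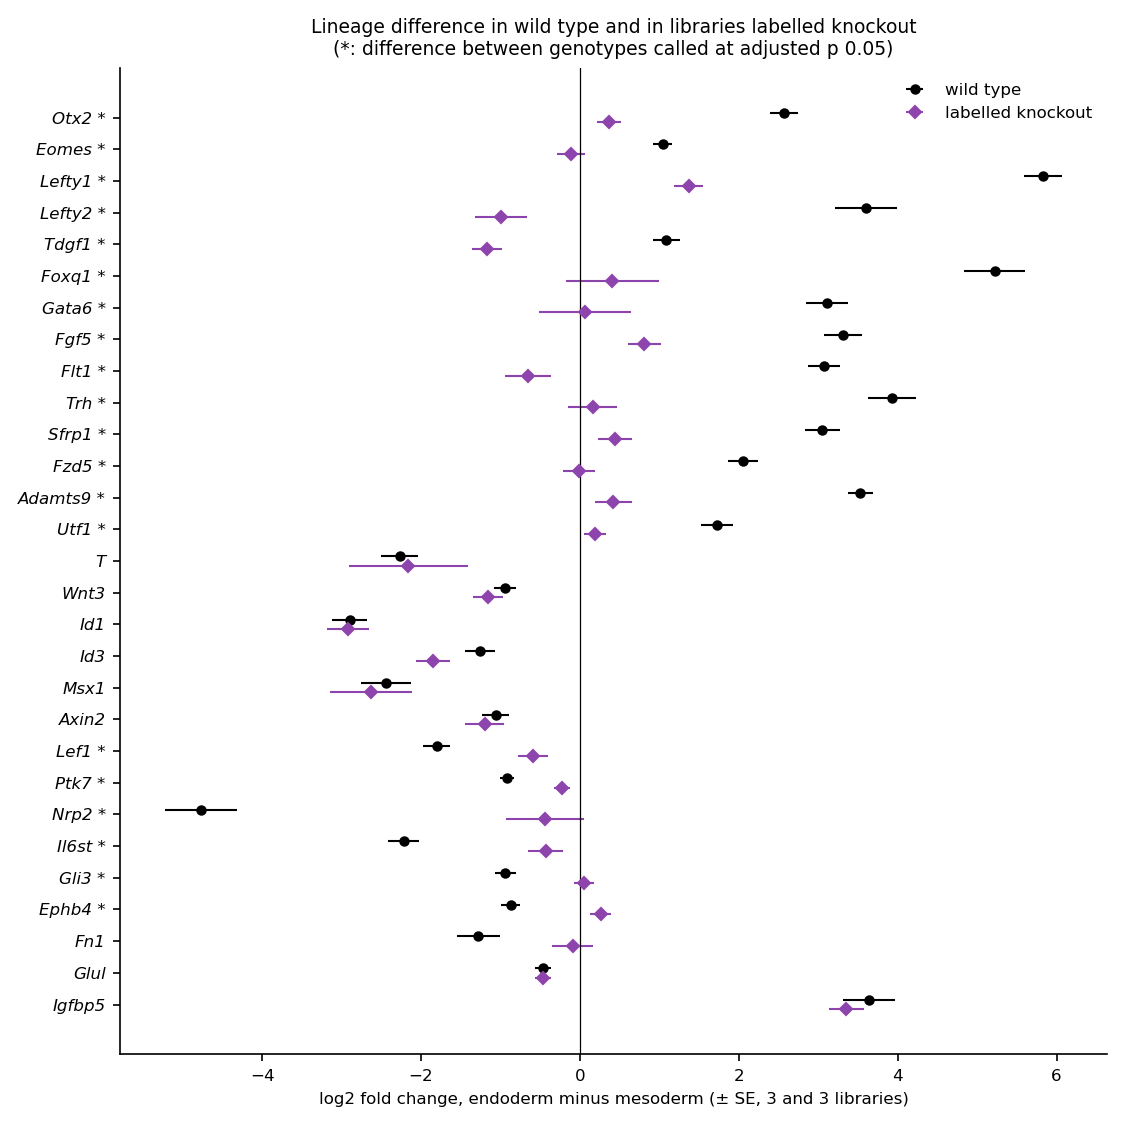
Log2 fold change between endoderm and mesoderm (± SE, 3 and 3 libraries) in wild type (circles) and in libraries labelled knockout (diamonds) for selected genes, with an asterisk where the difference between genotypes was called. Otx2, Trh and Fzd5 lie far from 0 in wild type and near it in knockout, while Id1, Msx1, Axin2 and Igfbp5 have their markers close together.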

How the data were processed

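Total RNA of CJ9 mouse embryonic stem cells was depleted of ribosomal RNA and sequenced with a directional kit, per the labels' protocols. The deposited table holds raw counts per gene, which the authors made before deposit. The submitters' processing notes name STAR, DESeq2 and mm10 without versions or roles, while the counting program, the annotation and the strand setting were not given in the sources used here. Antisense and overlapping genes can therefore not be told apart.

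Rn45s was left out. The filter filterByExpr (minimum count 10) was run on the 12 libraries with their 4 groups and does not require counts in every library. Genes that passed were fitted with edgeR 4.0.16 in R 4.3.3: TMM scaling, 4 group means, quasi-likelihood F-test, Benjamini-Hochberg adjustment over all tested genes, threshold 0.05. The SE is the size of a fitted log2 change over √F. DESeq2 1.42.0 was an alternative. The fit was tested on simulated counts with 200 changed genes. In E1, 26 genes hold a date in place of a count; 16 of them were tested on the other 11 libraries and 1 was called, Septin9. Unusable symbols (374) were taken from RefSeq by Entrez identifier.

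The gene lists and members were chosen with earlier results of these data known. Named were a panel of lineage genes, the 10 largest called differences in each direction (at least 5 CPM in the higher group, no overlap, no predicted gene models), up to 4 called members per list with the smallest adjusted p, and the 5 largest genotype differences in each direction; all other called list members were named after their values were seen. A list is described by its counts and median, with no test of the list; some called genes are not reported here. Sequences are RefSeq promoters of GRCm38.p6.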

Additional observations from a re-analysis of the deposited data

Results flagged for a closer look

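For 54 genes named here, the endoderm against mesoderm contrast differed between wild type and the libraries labelled knockout by the edgeR test of that difference at an adjusted p under 0.05; the values in parentheses are the wild type contrast minus the knockout contrast, in log2 units. Among endoderm factors the differences were those of Gata6 (3.05), Hhex (2.92), Otx2 (2.20), Eomes (1.15), Foxa1 (7.25) and Foxq1 (4.81). In the Nodal and TGF-beta pathways they were Lefty1 (4.46), Lefty2 (4.59), Tdgf1 (2.25), Nodal (0.97), Pmepa1 (1.28) and Tgfbr3 (1.73); Nodal itself had no call in wild type alone. Wnt genes on this list were Fzd5 (2.06), Fzd7 (0.80), Fzd8 (1.94), Lgr4 (0.86), Sfrp1 (2.61), Dkk1 (5.74), Ptk7 (−0.68) and Lef1 (−1.21).

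Pluripotency and epiblast genes were Fgf5 (2.51), Utf1 (1.54), Zic2 (0.84) and Foxd3 (1.91). Genes of the FGF branch, other receptors and ligands, and Runx1 were Fgfr1 (−0.60), Il17rd (0.81), Egr1 (2.09), Etv4 (1.49), Kit (1.78), Flt1 (3.71), Runx1 (2.50), Nrp2 (−4.33), Il6st (−1.79) and Trh (3.77). The Notch, Hedgehog, retinoid and guidance genes were Jag1 (1.80), Gli3 (−1.0), Dhrs3 (2.90), Epha4 (−1.23), Ephb4 (−1.13), Epha2 (1.33), Sema6d (2.77) and Ntn1 (2.99). For matrix and metabolism they were Fras1 (−1.05), Gpc4 (1.92), Adamts9 (3.11), Hspg2 (−0.55), Cpt1a (1.47), Slc7a3 (1.27) and Cth (−2.0).

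Outside the lists they were Lypd6b (4.13), Raet1b (−5.49), Raet1a (−5.24), Scn9a (−3.78) and Kcnh8 (−3.40). Raet1a and Raet1b are close paralogs and their reads may be split between them. Foxa1 held 1 count in wild type mesoderm, so its value depends on the prior count of the fit and is no bound. Groups of 3 libraries are too small for a test of single libraries that stand apart.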

How the results depend on the processing

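Of 232 named genes with a call, 161 kept it in every one of the 12 alternatives tried (fewer for genes a filter or tool left out), and no named gene changed direction. The 513 genes called higher in endoderm became 330 (without E2) to 618 (without M1) when single libraries were left out, and the 632 higher in mesoderm 380 (without M3) to 773 (without M1). They were 352 and 460 by DESeq2, 652 and 848 with no filter on low counts, 430 and 554 in a fit of the 6 wild type libraries, 503 and 636 with RLE size factors, and 488 and 629 without Mir6236 and Lars2. The 163 genes with a difference between genotypes became 377 with no filter, and 105 (without E2) to 354 (without M1) when single libraries were left out; the cause was not tested. No setting moved the median of all genes beyond 0.016 or below −0.01.

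The deviations of equally numbered wild type libraries correlated at 0.175, 0.095 and 0.055, against at most −0.044, −0.007 and 0.047 with other numbers. Each library thus correlated best with its own number, a hint from the data and not the design, and the numbers were not taken as pairs. With the replicate block the counts were 573 higher in endoderm, 735 in mesoderm and 255 for the difference between genotypes. Among the named genes the block added calls for Mixl1 (0.00973), Kdr (0.0365), Aplnr (0.035) and Sox2 (0.0213) and ended those of Mthfd2 (0.0522) and Shmt2 (0.0507); their values are adjusted p under the block.

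Depth limits the low genes: 3 counts correspond to 0.506 to 1.55 CPM, Tbx6, Msgn1, Hand1 and Bmp4 fell below the filter, and a level of 0 is a limit of this depth.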

Other observations

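The genes here were chosen after their values were seen and carry no support from the choice. All 7 tested guanylate-binding protein genes, interferon-induced GTPases of cell defence, were called higher in mesoderm, against 5.43% of all tested genes. Gbp2b was at 1.17, 2.06 and 0.85 against 9.26, 16 and 31.4 CPM (log2 fold change −3.72 ± 0.45 SE, adjusted p = 4.60e-06, edgeR). Gbp2 was at 2.63, 2.92 and 2.27 against 11.8, 11.4 and 32.4 CPM (log2 fold change −2.90 ± 0.36 SE, adjusted p = 7.86e-06, edgeR). M3 was the highest library for both, and both kept their call in every alternative. Without M3 the calls of the other 5 ended: Gbp3 (adjusted p over the alternatives 0.000159 to 0.28), Gbp4 (adjusted p over the alternatives 1.50e-09 to 0.242), Gbp6 (adjusted p over the alternatives 9.00e-06 to 0.289), Gbp7 (adjusted p over the alternatives 7.09e-05 to 0.509) and Gbp9 (adjusted p over the alternatives 1.84e-09 to 0.122). Gbp4 also lost its call by DESeq2 and without E2, and Gbp7 without E1 or E2. The RNA sensor Ifih1 was at 0.292, 0.344 and 0 against 1.25, 6.2 and 5.74 CPM (ratio 18.3, 95% counting interval 5.92 to 91.7, adjusted p = 0.000431, edgeR). In the libraries labelled knockout, the same gene stood at 5.54, 2.89 and 3.25 CPM in endoderm and 6.45, 5.55 and 5.08 CPM in mesoderm, so wild type endoderm held the lowest levels of the 4 groups.

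Raet1a, Raet1b and Raet1d, ligands of the NKG2D receptor of natural killer cells, were called higher in mesoderm too. Raet1a was at 0.292, 0 and 0 against 3, 4.65 and 6.41 CPM (ratio 63.5, 95% counting interval 11 to 2552, adjusted p = 3.38e-05, edgeR). The arachidonate lipoxygenase gene Alox15 was at 9.05, 9.63 and 9.63 against 51.3, 188 and 149 CPM (log2 fold change −3.73 ± 0.35 SE, adjusted p = 1.56e-07, edgeR), with M1 the lowest mesoderm library. Its levels in the libraries labelled knockout were 0.583, 0.509 and 0.811 CPM in endoderm and 1.68, 2.78 and 8.03 CPM in mesoderm.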
